A study of Xenopus laevis with 8 samples.

Results

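The 2 sibships of Xenopus laevis tadpoles behind this series, clutch B and clutch A, were compared in their hindlimb buds over all 8 arrays, the 4 labelled Clutch B against the 4 labelled Clutch A. Each array held RNA from 1 pool of 18 to 22 hindlimb buds of tadpoles at stage 52, hybridised to the Affymetrix array of this frog. In each clutch, 2 arrays came from tadpoles kept for 24 h in cyclopamine at 1 µg/ml and 2 from tadpoles kept for 24 h in ethanol, the solvent of cyclopamine. Replicates 3 and 4 were from clutch B and replicates 1 and 2 from clutch A, and the cyclopamine and ethanol arrays of the same number form a pair. Both clutches were bought as tadpoles, raised in alternating tanks on the same rack without mixing, and staged daily, and no genetic change or other agent separated them. Each clutch is 1 family, so that the p-values below measure the spread between pools of 2 families and do not extend to other families. The arrays of a pair also shared the day of exposure and the extraction, and no pair held limb buds of both clutches.

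A clutch is the brood of 1 mating, and broods of an outbred frog differ in the alleles they carry, in what the mother laid into the egg and in how fast they grow. X. laevis is an allotetraploid: most genes exist as a long (.L) and a short (.S) copy from its parental species, called homeologs. Each copy has its own sequence, and probe sets are assigned to a copy by their annotation. A probe set is a group of short probes for 1 transcript, and a gene may have several. At stage 52 the hindlimb bud is a mass of mesenchyme under an epidermis, patterned by Sonic hedgehog, fibroblast growth factors, bone morphogenetic proteins and Wnt proteins before cartilage and muscle form. Cyclopamine blocks Smoothened, the membrane protein that passes on the hedgehog signal.

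Values are log2 intensities after quantile normalization, with low values set to a floor of 5.45, and a difference is clutch B minus clutch A on this log2 scale. Where arrays of the lower clutch are at the floor, a difference is a lower bound of its size. The floor also narrows the spread within that clutch, on which the p-value rests. Of 15491 probe sets without the array's controls, 1544 were at the floor on all arrays and 13947 were tested. The limb bud was recognisable in both clutches. The hindlimb gene pitx1.L lay at 11.24 to 12.18 on the clutch B arrays and at 10.71 to 11.61 on the clutch A arrays. The hindlimb gene tbx4.L lay at 7.62 to 8.73 in clutch B and at 7.34 to 8.12 in clutch A on the brighter of its 2 probe sets. The forelimb gene tbx5.S was at the floor on all arrays but cyclopamine array 2 of clutch A, where it read 5.49. shh.L, the hedgehog ligand of the posterior margin, lay at 8.40 to 8.86 in clutch B and at 8.18 to 9.11 in clutch A. No tested probe set was named for prrx1 or lmx1b. The ratio of the 3' to the 5' control probe set for gapdh, a sign of RNA quality, was 5.41 to 6.20 in clutch B and 5.55 to 6.98 in clutch A. The same ratio for beta-actin was far lower, 0.20 to 0.28 in clutch B and 0.26 to 0.30 in clutch A.

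The first principal component held 39.5% of the variance and ran from 41.5 for cyclopamine array 4 of clutch B to -34.9 for ethanol array 2 of clutch A. All clutch B arrays lay above all clutch A arrays on it, but by a narrow margin: the lowest of clutch B, ethanol array 4, had -3.40, beside -4.10 and -3.90 for the cyclopamine and ethanol arrays of pair 1 of clutch A. Of the sum of squares over all tested probe sets, clutch held 29.9% on 1 degree of freedom and the pairs within a clutch 25.1% on 2, against 13.7% for treatment on 1. Between arrays, correlations were 0.961 to 0.985 within clutch B, 0.965 to 0.982 within clutch A and 0.939 to 0.977 between the clutches.

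**Figure D1:**
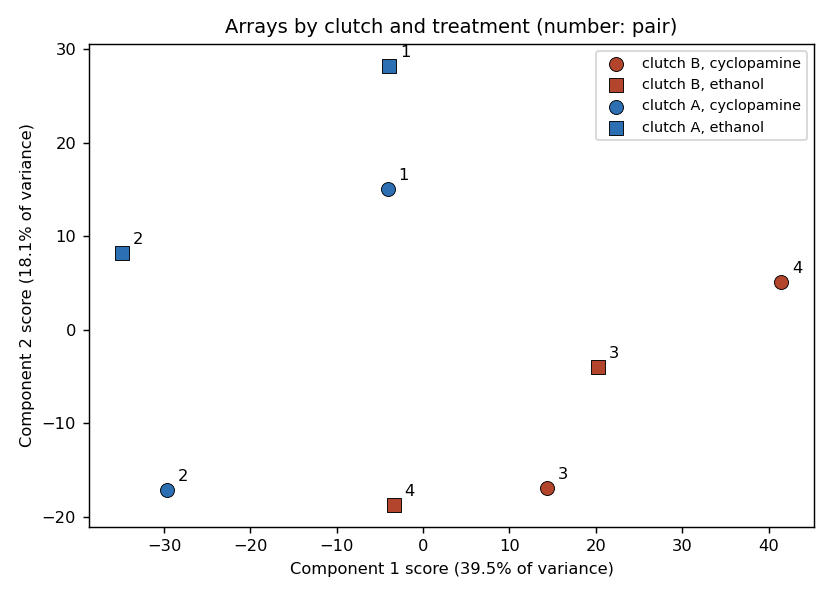
Scores of the 8 arrays on the first 2 principal components of the log2 intensities (x axis 39.5% and y axis 18.1% of the variance, without unit). Red marks are clutch B and blue marks clutch A, circles cyclopamine and squares ethanol, and the number is the pair. Cyclopamine array 4 of clutch B (41.5) and ethanol array 2 of clutch A (-34.9) lie at the ends of the first component, on which the lowest clutch B array (-3.40) is just above the highest clutch A array (-3.90).

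In the comparison of clutch B with clutch A with treatment as a covariate, 78 probe sets were higher and 103 lower in clutch B, 181 in all, at an adjusted p under 0.05 (limma, Benjamini-Hochberg). These are 1.30% of the 13947 tested, 0.559% higher and 0.739% lower. The split depended on the scaling, with 86 higher and 73 lower on the deposited scale and 62 and 113 after array medians were subtracted. Without adjustment 3028 had a p under 0.05, of which 9.81% of all tested were higher and 11.9% lower in clutch B. The 4 arrays of clutch B lay wholly above or wholly below the 4 of clutch A for 176 of the 181, and for 11.4% of all probe sets tested. The called differences had a median size of 0.88 and reached from 0.46 to 3.68, and 71 of them were at least 2-fold, of 188 probe sets tested with a difference of that size. Of the 181, 114 had a gene symbol, standing for 110 gene copies, and 67 had none. Leaving out any 1 of the 8 arrays reduced the count to between 16 (without cyclopamine array 1 or ethanol array 2 of clutch A) and 66 (without ethanol array 1 of clutch A). Of the original calls 11 passed in all 8 of these fits. When the 2 arrays of each pair were averaged, 2 pairs were left against 2. Only 1 probe set, without a gene symbol, then passed, and 2515 had an unadjusted p under 0.05. Averaging leaves each difference as it was, so the 181 could not change direction.

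Among the genes higher in clutch B, the largest differences were in a heparan sulfate enzyme, a receptor for ephrins and a translation kinase. ext1.S encodes a glycosyltransferase that builds heparan sulfate, the sugar chain that holds hedgehog, fibroblast growth factor and Wnt proteins at cell surfaces. Its probe set read 8.45 and 7.66 on the cyclopamine arrays and 8.23 and 8.43 on the ethanol arrays of clutch B, and was at the floor of 5.45 on all 4 arrays of clutch A. On this probe set the groups were far apart (adjusted p = 0.00181). The fold was at least 6.69, since the clutch A mean is only bounded by the floor. The other probe set of ext1.S averaged 8.53 in clutch B and 8.48 in clutch A, and there the clutches overlapped. The other copy, ext1.L, differed by 0.22. ephb3.S encodes a receptor for ephrin-B ligands, which sort cells at tissue boundaries. It read 7.71 and 7.99 on the cyclopamine arrays and 7.77 and 7.27 on the ethanol arrays of clutch B, and again stood at the floor on every array of clutch A (at least 4.71-fold, adjusted p = 0.00181). mknk2.S encodes a kinase that phosphorylates the cap-binding protein of translation. It read 7.24 and 7.59 with cyclopamine and 7.55 and 7.32 with ethanol in clutch B, against 5.50 and 5.45 with cyclopamine and 5.45 and 5.45 with ethanol in clutch A, with 3 of the clutch A arrays at the floor (at least 3.89-fold, adjusted p = 0.00109). These 3 genes, with purb.S below, were the named genes that passed in all 8 fits with 1 array left out, where the highest adjusted p was 0.0373 for ext1.S, 0.0344 for ephb3.S and 0.0337 for mknk2.S. The floor left ext1.S and ephb3.S an SD of 0.0 in clutch A and mknk2.S one of 0.03. Their p-values, in these fits too, thus rest in part on a spread that the processing made small.

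Some genes of signalling, of the cell surface and of the matrix were called higher as well. They are grouped here by function, not by the size of their difference. smad7.L encodes the inhibitory SMAD that blocks receptors of bone morphogenetic proteins and TGF-beta and is itself induced by them. On its brightest called probe set it read 9.26 and 9.35 with cyclopamine and 9.18 and 8.73 with ethanol in clutch B, against 7.82 and 7.33 with cyclopamine and 8.14 and 8.11 with ethanol in clutch A. The clutches did not overlap, and the difference was 1.28 ± 0.22 (SE, adjusted p = 0.0475). smo.L encodes Smoothened, the target of cyclopamine. It read 8.52 and 9.16 with cyclopamine and 9.07 and 8.63 with ethanol in clutch B, against 7.89 and 7.30 with cyclopamine and 7.85 and 7.53 with ethanol in clutch A, a difference of 1.20 ± 0.20 (SE, adjusted p = 0.0461). On this probe set all 4 arrays of clutch B were above those of clutch A under either exposure. The other, brighter probe set of smo.L averaged 10.01 in clutch B and 9.78 in clutch A. There the difference was 0.23 and the clutches overlapped. lfng.S, whose product adds sugars to Notch, averaged 6.15 ± 0.08 in clutch B and 5.52 ± 0.14 in clutch A (SD, n = 4 each, adjusted p = 0.0361), close to the floor in both and with 3 arrays of clutch A at it. sdc4.L, a cell-surface carrier of heparan sulfate, averaged 11.36 ± 0.16 in clutch B and 10.81 ± 0.13 in clutch A on its called probe set (SD, n = 4 each), with 0.71 and -0.33 on its other probe sets. irs4.L, an adaptor of insulin receptors, differed by 0.87 and pcolce.S, an enhancer of collagen maturation, by 0.46 (adjusted p = 0.0373 and 0.0402). None of these genes passed in every fit with 1 array left out: the highest adjusted p there was 0.150 for smad7.L, 0.150 for smo.L, 0.117 for lfng.S, 0.142 for sdc4.L, 0.134 for irs4.L and 0.128 for pcolce.S.

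Some genes that bring amino acids into the cell or charge them onto transfer RNA were called higher in clutch B. slc7a5.L, the transporter of large neutral amino acids, read 9.40 and 8.52 with cyclopamine and 9.70 and 9.97 with ethanol in clutch B, against 7.87 and 7.67 with cyclopamine and 7.85 and 7.97 with ethanol in clutch A. The arrays of clutch A lay close together while cyclopamine array 4 of clutch B was well below the other clutch B arrays, and the difference was 1.56 ± 0.23 (SE, adjusted p = 0.0364). slc7a3.L, a transporter of cationic amino acids, was 0.78 higher, mthfd2.L, a folate enzyme of mitochondria, 0.89, gars1.S, the glycine-tRNA ligase, 0.74, and kars1.L, the lysine-tRNA ligase, 0.56 (adjusted p = 0.0373, 0.0373, 0.0402 and 0.0361). On a list of such genes written after these values were seen, 48 probe sets were tested, 5 were called higher and none lower. Of all probe sets tested, 0.559% were called higher and 0.739% lower. Since the list was written with its values known, its counts describe these genes and do not test them as a group. Before adjustment 11 passed as higher (22.9%, against 9.81% of all probe sets) and 5 as lower (10.4%, against 11.9%), the lower ones including farsa.S (-1.06) and farsb.L (-0.73), subunits of the phenylalanine-tRNA ligase. With 1 array left out the highest adjusted p of the 5 genes named as higher was between 0.117 for slc7a3.L and 0.134 for gars1.S.

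A few genes of the lysosome and of membrane traffic were called higher as well, although the list of lysosomal genes and proteases did not lean to either side, with 7 higher and 9 lower of 82 before adjustment (8.54% and 11.0%) and a median of 0.01. ctsb, the lysosomal protease cathepsin B, was the gene of which both homeologs were called in the same direction. ctsb.S read 11.62 and 11.85 with cyclopamine and 11.48 and 11.55 with ethanol in clutch B, against 11.07 and 10.93 with cyclopamine and 10.50 and 10.67 with ethanol in clutch A (0.83 ± 0.10 SE, adjusted p = 0.0204). ctsb.L read 10.38 and 10.34 with cyclopamine and 10.20 and 10.20 with ethanol in clutch B, against 9.85 and 9.81 with cyclopamine and 9.70 and 9.45 with ethanol in clutch A (0.58 ± 0.09 SE, adjusted p = 0.0373). In both copies the lowest clutch B array was above the highest clutch A array. vta1.L, a cofactor of the complex that sorts membrane proteins to the lysosome, averaged 8.44 ± 0.15 in clutch B and 6.94 ± 0.17 in clutch A (SD, n = 4 each, adjusted p = 0.00572). sqstm1.L, an adaptor that delivers ubiquitinated cargo to autophagy, was 0.63 higher although the clutches overlapped, with 9.04 to 10.03 in clutch B and 8.53 to 9.34 in clutch A. syvn1.L, a ubiquitin ligase of the endoplasmic reticulum, was 0.77 higher (adjusted p = 0.0481). The highest adjusted p with 1 array left out was 0.0571 for vta1.L, 0.0819 for ctsb.S, 0.124 for ctsb.L, 0.128 for sqstm1.L and 0.153 for syvn1.L.

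Fast-responding and nuclear genes completed the higher group. zfp36.L, whose product binds AU-rich messages and speeds their decay, read 9.97 and 9.47 with cyclopamine and 9.39 and 9.92 with ethanol in clutch B, against 8.68 and 8.35 with cyclopamine and 8.54 and 8.20 with ethanol in clutch A. The difference was 1.25 ± 0.18 (SE, adjusted p = 0.0323) and the clutches did not overlap. ier2.S, another immediate early gene, was 0.79 higher (adjusted p = 0.0361), while egr1.L, the best known gene of this class, had 10.85 ± 0.18 in clutch B and 9.60 ± 0.49 in clutch A (SD, n = 4 each) with an adjusted p of 0.0586. Chromatin and RNA genes included hmgn1.S, a nucleosome-binding protein, prdm2.S, a histone methyltransferase, and rbm5.S, a splicing regulator. They were 0.98, 1.13 and 1.16 higher (adjusted p = 0.0280, 0.0204 and 0.0481). tef.S, a transcription factor of clock output, averaged 9.46 ± 0.20 in clutch B and 8.97 ± 0.21 in clutch A (SD, n = 4 each, adjusted p = 0.0401). c9.L, the pore-forming component of complement, averaged 7.44 ± 0.21 in clutch B and 6.48 ± 0.27 in clutch A (SD, n = 4 each, adjusted p = 0.0483). With 1 array left out, the highest adjusted p of the 7 called genes in this paragraph was between 0.0878 for prdm2.S and 0.153 for rbm5.S.

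**Figure D2:**
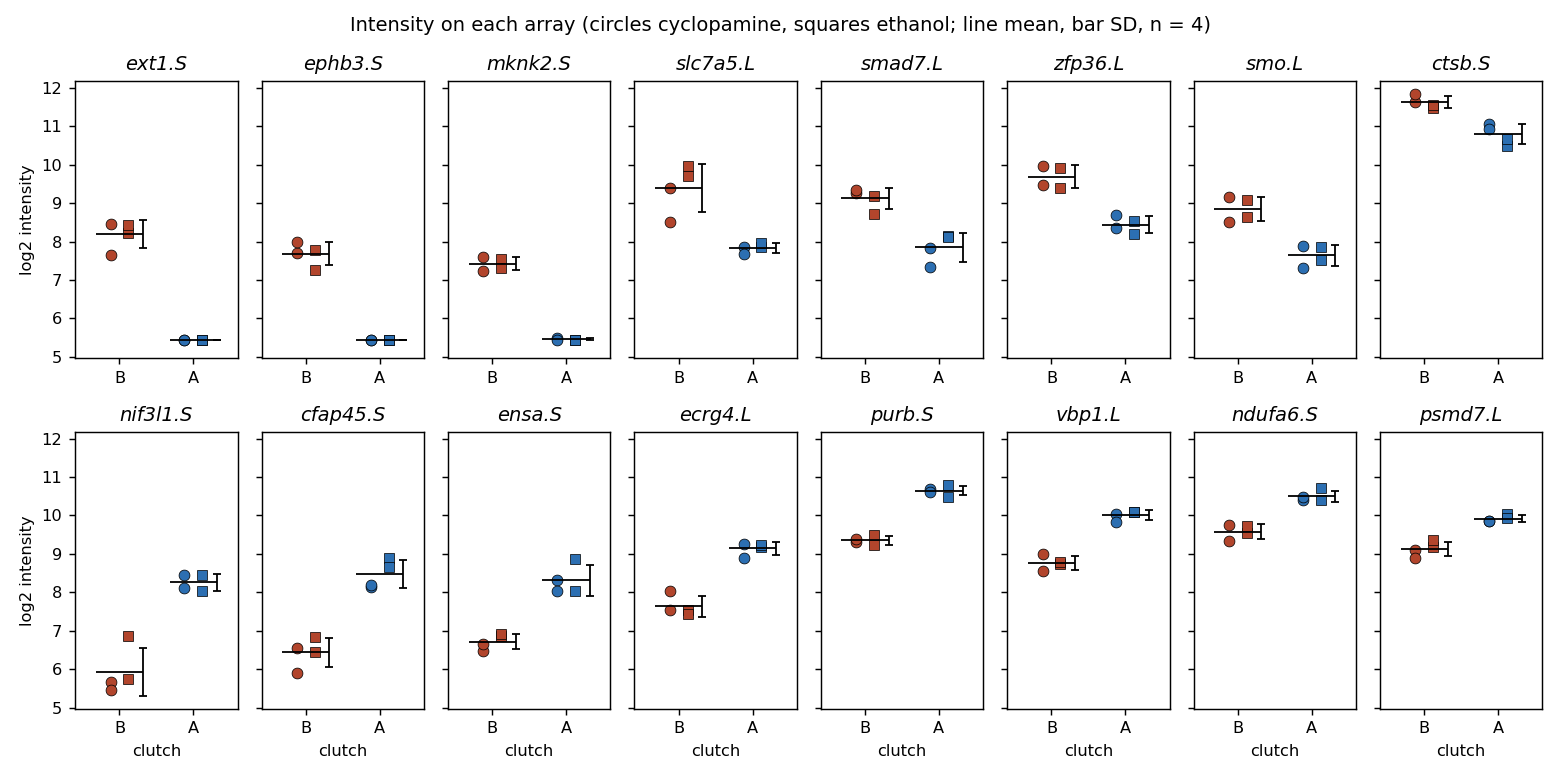
Log2 intensity (y axis) of 16 gene copies on each array of clutch B (red, left) and clutch A (blue, right), with cyclopamine arrays as circles and ethanol arrays as squares, the mean as a line and the SD as a bar (n = 4). Each gene copy is shown on a called probe set. ext1.S, ephb3.S and mknk2.S stand at or next to the floor of 5.45 in clutch A, and in each of the 16 panels the clutches do not overlap.

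Among the genes lower in clutch B, nif3l1.S had the largest difference. It read 5.67 and 5.45 with cyclopamine and 5.73 and 6.86 with ethanol in clutch B, against 8.10 and 8.45 with cyclopamine and 8.04 and 8.44 with ethanol in clutch A (-2.33 ± 0.29 SE, adjusted p = 0.0211). cfap45.S, a protein of the ciliary axoneme, read 5.91 and 6.54 with cyclopamine and 6.84 and 6.44 with ethanol in clutch B, against 8.14 and 8.20 with cyclopamine and 8.90 and 8.65 with ethanol in clutch A (-2.04 ± 0.17 SE, adjusted p = 0.00521). On these probe sets both genes kept a gap of more than 1 log2 unit between the clutches. The other probe set of cfap45.S was near the floor, at 5.45 throughout clutch B and 5.45 to 6.46 in clutch A (-0.37). The other copy, cfap45.L, had -0.01. ensa.S, an inhibitor of the phosphatase that opposes mitotic kinases, averaged 6.71 ± 0.20 in clutch B and 8.31 ± 0.40 in clutch A (SD, n = 4 each, adjusted p = 0.0183). ecrg4.L, a secreted peptide precursor, averaged 7.63 ± 0.27 in clutch B and 9.14 ± 0.17 in clutch A (SD, n = 4 each, adjusted p = 0.0133). purb.S, a protein that binds single-stranded DNA and RNA, read 9.30 and 9.39 with cyclopamine and 9.50 and 9.23 with ethanol in clutch B, against 10.69 and 10.61 with cyclopamine and 10.78 and 10.49 with ethanol in clutch A. Its arrays were tight within each clutch, and the difference was -1.29 ± 0.11 (SE, adjusted p = 0.00521). nlrp3.L, the inflammasome sensor, had a difference of -1.45, and cpne1.S, a calcium-dependent membrane-binding protein, of -1.42 (adjusted p = 0.0477 and 0.0232). With 1 array left out, purb.S kept an adjusted p of at most 0.0477, and the highest was 0.101 for nif3l1.S, 0.0589 for cfap45.S, 0.0940 for ensa.S, 0.0754 for ecrg4.L, 0.153 for nlrp3.L and 0.101 for cpne1.S.

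Genes of mitochondrial import, translation and the respiratory chain were among the 67 named probe sets called lower. ndufa6.S, a subunit of complex I, read 9.74 and 9.32 with cyclopamine and 9.54 and 9.72 with ethanol in clutch B, against 10.39 and 10.49 with cyclopamine and 10.40 and 10.71 with ethanol in clutch A (-0.92 ± 0.13 SE, adjusted p = 0.0282). cox7a2.S, a subunit of cytochrome c oxidase, had -0.74 and coa7.L, which helps to assemble that enzyme, -1.04 (adjusted p = 0.0475 and 0.0373). timm50.L and mtx2.L, parts of the protein import machinery, had -1.30 and -0.70, and mul1.L, a ubiquitin ligase of the outer membrane, -0.70 (adjusted p = 0.0373, 0.0232 and 0.0211). mrpl23.S, mrpl28.L and mrps34.S, proteins of the mitochondrial ribosome, had -0.70, -0.72 and -0.99. acadm.L, which starts the breakdown of medium-chain fatty acids, averaged 9.78 ± 0.22 in clutch B and 10.54 ± 0.12 in clutch A (SD, n = 4 each, adjusted p = 0.0364), and mmachc.L, which processes vitamin B12 for mitochondrial and cytosolic enzymes, had -1.39. On its called probe set each of these genes read lower on all 4 arrays of clutch B than on any array of clutch A. The highest adjusted p with 1 array left out was between 0.0820 for mul1.L and 0.142 for cox7a2.S.

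Protein turnover, folding, splicing and glycolysis were represented as well. psmd7.L and psmd14.L encode subunits of the lid of the proteasome's regulatory particle, of which the second removes ubiquitin. psmd7.L read 9.10 and 8.88 with cyclopamine and 9.17 and 9.35 with ethanol in clutch B, against 9.85 and 9.86 with cyclopamine and 10.04 and 9.92 with ethanol in clutch A (-0.79 ± 0.10 SE, adjusted p = 0.0204). psmd14.L had -0.82 ± 0.13 (SE, adjusted p = 0.0401). vbp1.L, a subunit of the prefoldin chaperone that hands actin and tubulin to their folding machine, averaged 8.76 ± 0.18 in clutch B and 10.01 ± 0.12 in clutch A (SD, n = 4 each, adjusted p = 0.00840). Of the spliceosome, lsm8.S, of the ring around U6 RNA, had -1.40, phf5a.L, of the SF3b complex, -0.75 and -0.74 on 2 probe sets, and srsf10.S, a splicing factor, -0.64 (adjusted p = 0.0364, 0.0232, 0.0352 and 0.0280). Splicing genes were called in both directions. On the list of splicing and RNA binding genes, srsf10.S was the 1 called lower and 2 were called higher. These were rbm5.S (1.16) and ddx39a.L (0.73, with 0.15 on its other probe set). mrto4.L, an assembly factor of the large ribosomal subunit, had -1.22, and prdx1.L, which removes peroxide, -0.79 (adjusted p = 0.0286 and 0.0314). gapdh.L, the glycolytic enzyme often used as a reference gene, averaged 11.93 ± 0.13 in clutch B and 12.56 ± 0.07 in clutch A (SD, n = 4 each, adjusted p = 0.0280). With 1 array left out the highest adjusted p of the genes called lower in this paragraph was between 0.0660 for vbp1.L and 0.133 for psmd14.L.

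A few probe sets were at the floor throughout 1 clutch and above it throughout the other. By this measure 11 probe sets were at the floor on all clutch A arrays and above it on all clutch B arrays, and 13 the other way, of which 5 and 4 had a symbol. ext1.S and ephb3.S led the first kind and MGC83844, of no stated function, followed with 5.95 to 6.41 in clutch B (adjusted p = 0.0373). The other probe sets of ext1.S and MGC83844 were above the floor in both clutches. They averaged 8.48 and 7.38 in clutch A, against 8.53 and 7.25 in clutch B. In the second kind cav3.2.S, a caveolin of muscle, was at the floor of 5.45 on all clutch B arrays and read 6.15 and 6.35 with cyclopamine and 6.50 and 6.30 with ethanol in clutch A (at least 1.84-fold lower in clutch B, adjusted p = 0.0133, at most 0.0699 with 1 array left out). cebpa.S, a transcription factor of myeloid and fat cells, was at the floor in clutch B and had 6.12 ± 0.23 in clutch A (SD, n = 4) with an adjusted p of 0.0546. At a margin of at least 2 log2 units above the floor on every array of the other clutch, ext1.S remained on the first side and a probe set without a gene symbol on the second, with 7.73 to 8.62 in clutch A (at least 6.93-fold lower in clutch B, adjusted p = 0.00109). The largest difference of all, -3.68 ± 0.19 (SE, adjusted p = 0.00109), belonged to another probe set without a symbol, the one that also passed with pairs averaged, with 5.45 to 6.23 in clutch B and 9.08 to 9.73 in clutch A.

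Where a called gene had other probe sets, these did not all follow it. For 28 called gene copies with a symbol the array held 40 further tested probe sets. Of these, 31 differed in the same direction, 19 of them past the threshold before adjustment. The 9 others differed in the opposite direction, 6 of them past it. Over all pairs of probe sets of 1 symbol 63.3% had the same sign. ext1.S had 0.04 on its second probe set with overlapping clutches, and purb.S had -0.06 and lsm8.S -0.01 on others. The same held for smo.L with 0.23, psmd7.L with -0.18 and mul1.L with -0.17, while sh3glb1.S, a membrane-curving protein, had at least 1.53 on its called probe set and -0.37 on the other. sptlc1.L, a subunit of the enzyme that begins sphingolipid synthesis, had 1.68 and 1.29 on 2 probe sets and -0.41 and -0.89 on 2 more. aldh7a1.L, an aldehyde dehydrogenase of lysine breakdown, was called in opposite directions, with 0.71 on 1 probe set and -0.58 on another (adjusted p = 0.0280 and 0.0394) and -0.86 on the remaining one. On other genes the probe sets moved together. smad7.L had 1.28, 0.94 and 0.65 on its 3 probe sets, gars1.S had 0.74, 0.74 and 0.62, and the regulatory subunit prkag1.L of AMP-activated kinase had -0.68 and -0.51, both called. Some of these probe sets have names that differ only in their suffix: gars1.S at 0.74, smad7.L at 1.28 and 0.65, and sptlc1.L at 1.68 and 1.29. Such probe sets may not be separate measurements. The part of sequence differences between the families under the probes in these splits was not tested.

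The other homeolog was measured for 28 called gene copies, on 34 probe sets. Of these, 31 lay on the same side as the called copy, 10 of them at an unadjusted p under 0.05. None of the 3 on the opposite side reached that. The 2 copies of ctsb, both called, are each counted here as the other homeolog. Of all probe sets tested, 9.81% were higher and 11.9% lower at that level. Over all pairs of homeologous probe sets 63.4% had the same sign. vbp1.S had -0.56 beside vbp1.L, coa7.S -0.60 beside coa7.L, psmd14.S -0.44 beside psmd14.L and kars1.S 0.46 beside kars1.L (adjusted p = 0.0848, 0.0546, 0.0897 and 0.0543). This kars1.S probe set and that of kars1.L have names that differ only in their suffix, so that they may not be separate measurements. The other kars1.S probe set had 0.17. The copies were not always of like size: ephb3.L had 0.22 against at least 2.23 for ephb3.S, ext1.L 0.22 against at least 2.74 for ext1.S, and the short copy of cpne1 had -1.42 while the long one had -0.35 and -0.21. The .L and .S copies were called at rates of 1.32% and 1.36% of those tested.

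**Figure D3:**
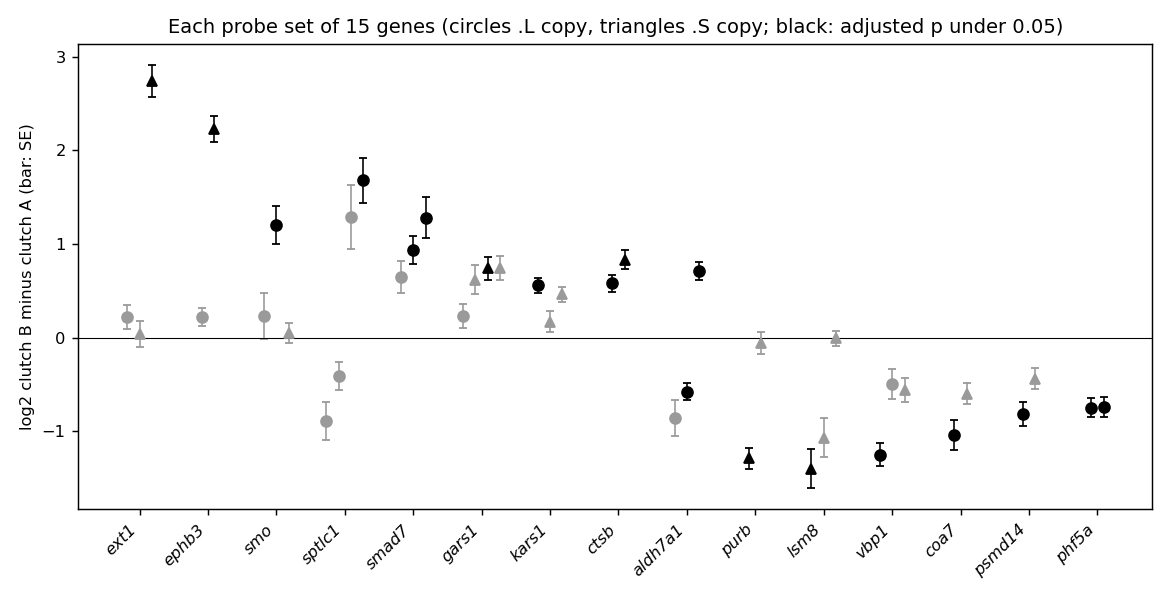
Difference of clutch B minus clutch A on the log2 scale (y axis, bars SE) for every tested probe set of 15 genes, with circles for the .L copy, triangles for the .S copy and black for an adjusted p under 0.05. The probe sets of smad7, gars1, ctsb and phf5a lie on the same side of 0, those of ext1, purb and lsm8 include 1 near 0, and those of sptlc1 and aldh7a1 lie on both sides of 0.

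The comparison was then made within each exposure. In the cyclopamine arrays alone, with the spread shared over all 8 arrays, 3 probe sets were higher and 3 lower in clutch B, 0.0430% of those tested. In the ethanol arrays 1 was higher and 3 lower, 0.0287%. Without adjustment 1862 had a p under 0.05 in the cyclopamine arrays and 1609 in the ethanol arrays. The genes with a symbol were ephb3.S (at least 2.40), vta1.L (1.75) and mknk2.S (at least 1.94) with cyclopamine, with adjusted p of 0.0379, 0.0306 and 0.0379, and mknk2.S (at least 1.98) with ethanol, with 0.0498. The other 3 probe sets in each exposure were the same ones, all lower in clutch B and without a gene symbol. With the pair as a block none passed in the ethanol arrays and 6 in the cyclopamine arrays, and with any 1 array left out at most 1 passed in the cyclopamine arrays and none in the ethanol arrays. In fits of the 4 arrays of 1 exposure with their own spread none passed by limma, with 1882 at an unadjusted p under 0.05 in the cyclopamine arrays and 1582 in the ethanol arrays.

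All 181 probe sets called over both exposures differed in the same direction, each at an unadjusted p under 0.05, in the cyclopamine and in the ethanol arrays. These arrays had chosen them, so a part of this follows from the choice. For a reading free of it, the 100 probe sets with the smallest p in the 4 cyclopamine arrays were looked up in the 4 ethanol arrays. There 90 had the same sign and 46 also a p under 0.05, and their median difference was 0.58, against 0.90 where they were chosen. The 100 chosen in the ethanol arrays had the same sign in the cyclopamine arrays for 91 and a p under 0.05 for 47, with a median difference of 0.62, against 0.99 where they were chosen. Over all tested probe sets 64.4% had the same sign, and the 2 differences correlated at r = 0.51 across probe sets. Arrays of a pair stand on both sides of this reading, since each clutch's cyclopamine and ethanol arrays shared days and extractions. The interaction of clutch and exposure passed for no probe set (limma, smallest adjusted p 0.999), and 3.76% (524) had an unadjusted p under 0.05. With 2 arrays a group this does not show that the differences were equal. The smallest interaction p among named genes belonged to genes such as gpm6a.L, a neuronal membrane glycoprotein, with -0.75 in cyclopamine and 1.17 in ethanol arrays on 1 of its probe sets, and slc25a26.L, a mitochondrial carrier, with -0.46 and -1.74.

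**Figure D4:**
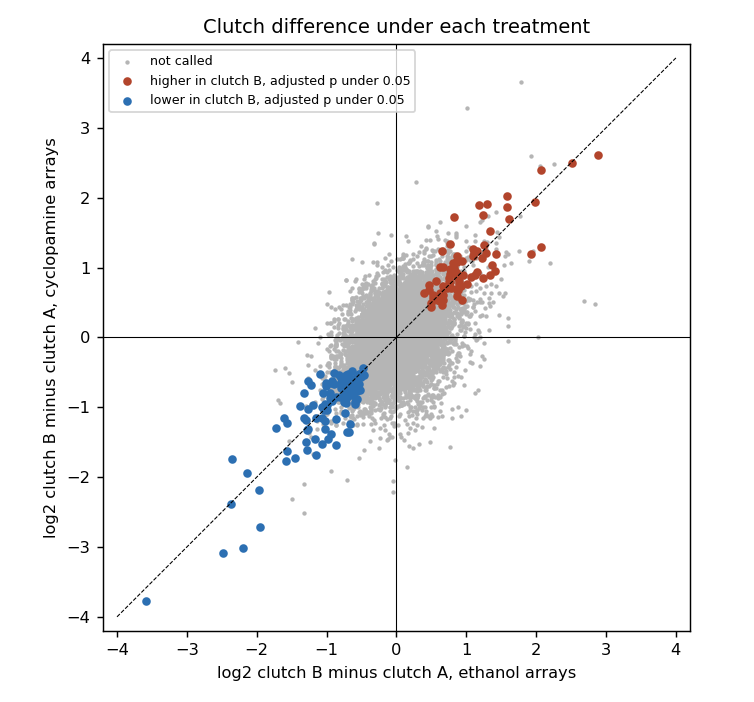
Difference of clutch B minus clutch A on the log2 scale in the ethanol arrays (x axis) and the cyclopamine arrays (y axis) for the 13947 probe sets tested, with the 78 called higher in clutch B in red, the 103 called lower in blue, the rest in grey, and the line of equality dashed. The called probe sets all lie in the lower left and upper right parts of the plot, and the whole cloud has r = 0.51.

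Lists of genes by function were read by their counts, beside the 9.81% of all probe sets that were higher and the 11.9% that were lower without adjustment, and the median of -0.01 over all probe sets tested. The mitochondrial respiratory chain had 77 probe sets tested, of which 74 lay below 0, none was higher and 28 were lower (36.4%) at that level, with a median of -0.22 and 2 called. Its mean level was 10.86 and 10.68 with cyclopamine and 10.76 and 10.98 with ethanol in clutch B, against 10.97 and 11.14 with cyclopamine and 11.00 and 11.24 with ethanol in clutch A. The arrays of the clutches thus overlapped slightly, with up to 10.98 in clutch B and from 10.97 in clutch A. Beside the called ndufa6.S and cox7a2.S, the members uqcrc2.S of complex III (-0.47) and cox7c.S of cytochrome c oxidase (-0.95) had an adjusted p of 0.0638 and 0.0683. Of 41 probe sets for proteins of the mitochondrial ribosome, 27 passed as lower (65.9%) and 1 as higher (2.44%) before adjustment. Their median was -0.43 and 3 were called lower, beside 0.739% of all probe sets tested. This list was written after these values were seen, so its counts describe the genes and do not test them as a group. The proteasome had 62 tested, none higher and 26 lower (41.9%), with a median of -0.23. In it 2 were called lower, beside the 0.739% of all probe sets. Its mean levels overlapped, with up to 10.47 in clutch B and from 10.45 in clutch A. Left out singly, the arrays moved these counts to between 17 and 35 for the respiratory chain and between 12 and 28 for the proteasome, and the medians kept their sign.

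Other lists with more lower than higher members were heat shock and folding (22 lower and 6 higher of 86), DNA replication (18 and 4 of 68), lipid, sugar and amino acid metabolism (34 and 8 of 139), translation factors and ribosome assembly (25 and 7 of 112), cytochrome P450 and drug metabolism (10 and 1 of 42), and glutathione and oxidative stress (13 and 6 of 61). Their lower shares were 25.6%, 26.5%, 24.5%, 22.3%, 23.8% and 21.3%, against 11.9% of all probe sets. Their higher shares were 6.98%, 5.88%, 5.76%, 6.25%, 2.38% and 9.84%, against 9.81%. Their medians were -0.17, -0.19, -0.12, -0.08, -0.10 and -0.13. In each of these lists the mean levels of the clutches overlapped. For heat shock and folding they reached 9.61 in clutch B and began at 9.46 in clutch A. Mitosis and cell cycle had 14 lower (13.2%) and 7 higher (6.6%) of 106 with a median of -0.01. Splicing and RNA binding had 25 lower (15%) and 18 higher (10.8%) of 167. Its median of 0.05 became -0.06 after the array medians were subtracted. The shares of both lists were not far from the 11.9% lower and 9.81% higher of all probe sets. Of the heat shock and folding genes, hspe1.L and hspd1.S, the chaperonin pair of the mitochondrion, had -0.97 and -0.88 (adjusted p = 0.0575 and 0.0652). All 11 probe sets of sterol and isoprenoid synthesis lay below 0 and 5 were lower at an unadjusted p under 0.05, 3 of them for hmgcs1.L, the enzyme that makes the precursor of mevalonate (-0.46, -0.48 and -0.53). This list also differed by exposure within each clutch, at 9.35 and 9.32 with cyclopamine and 8.37 and 8.62 with ethanol in clutch B, against 9.54 and 9.58 with cyclopamine and 8.96 and 9.08 with ethanol in clutch A. Ribosomal proteins, 89 probe sets, had a median of 0.00, which became -0.10 on the deposited scale and -0.20 after the array medians were subtracted, so that their direction rests on the scaling. Among the other lists named so far, mitosis and cell cycle, splicing, and lysosome also changed the sign of their median with the scaling, and the rest kept it.

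In lists of the limb's signals and matrix the medians were above 0. Matrix and adhesion genes had 94 tested, with 24 higher (25.5%) and 1 lower before adjustment, a median of 0.22 and 1 called, ephb3.S. The list's mean level was 8.66 and 8.74 with cyclopamine and 8.68 and 8.50 with ethanol in clutch B, against 8.43 and 8.34 with cyclopamine and 8.43 and 8.28 with ethanol in clutch A, so that all clutch B arrays were above all clutch A arrays. The fibronectin copy fn1.S had 0.58, 0.83, 0.85 and 1.01 on 4 probe sets, tenascin tnc.L 0.63 and nidogen nid2.L 0.59, with adjusted p from 0.0679 for nid2.L to 0.267 for fn1.S. The BMP and TGF-beta list had 61 tested, 54 of them above 0, with 11 higher and none lower and a median of 0.20. Its mean levels overlapped, from 8.18 in clutch B and up to 8.33 in clutch A. The ligand bmp4.S had 0.72 and the receptor acvr1.S 0.54 (adjusted p = 0.0721 and 0.110), beside the 2 called probe sets of smad7.L. The Wnt list had 7 higher and none lower of 72, the FGF, EGF and insulin list 8 and none of 56, the Hox genes 6 and 1 of 33, and the limb patterning transcription factors 6 and none of 62, with medians of 0.20, 0.18, 0.19 and 0.18. No probe set on these lists was called, and in all but the Wnt list the mean levels of the clutches overlapped. The Wnt share of 9.72% higher and that of the limb transcription factors, 9.68%, were near that of all probe sets. With 1 array left out these higher counts moved to between 2 and 13 for Wnt, 4 and 10 for FGF, EGF and insulin, 3 and 7 for Hox and 2 and 10 for the limb transcription factors, and the Wnt count was 14 on the deposited scale. The Hedgehog list had 2 higher (8.7%) and 3 lower (13%) of 23, near the shares of all probe sets, with smo.L the only one called. Immediate early and hypoxia genes had 17 higher and 5 lower of 64, the lower ones including myc.L (-0.62) and myc.S (-0.78). Left out singly, the arrays moved the higher count to between 15 and 32 for matrix and adhesion and between 7 and 14 for BMP and TGF-beta. The highest median of all lists, 0.30, belonged to MHC, interferon and innate immune signaling. That list had 4 higher (16%) and none lower of 25, with 22 above 0 and none called. Its mean levels overlapped, from 7.7 in clutch B and up to 7.79 in clutch A. With 1 array left out its median lay between 0.19 and 0.42 and its higher count between 3 and 10.

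**Figure D5:**
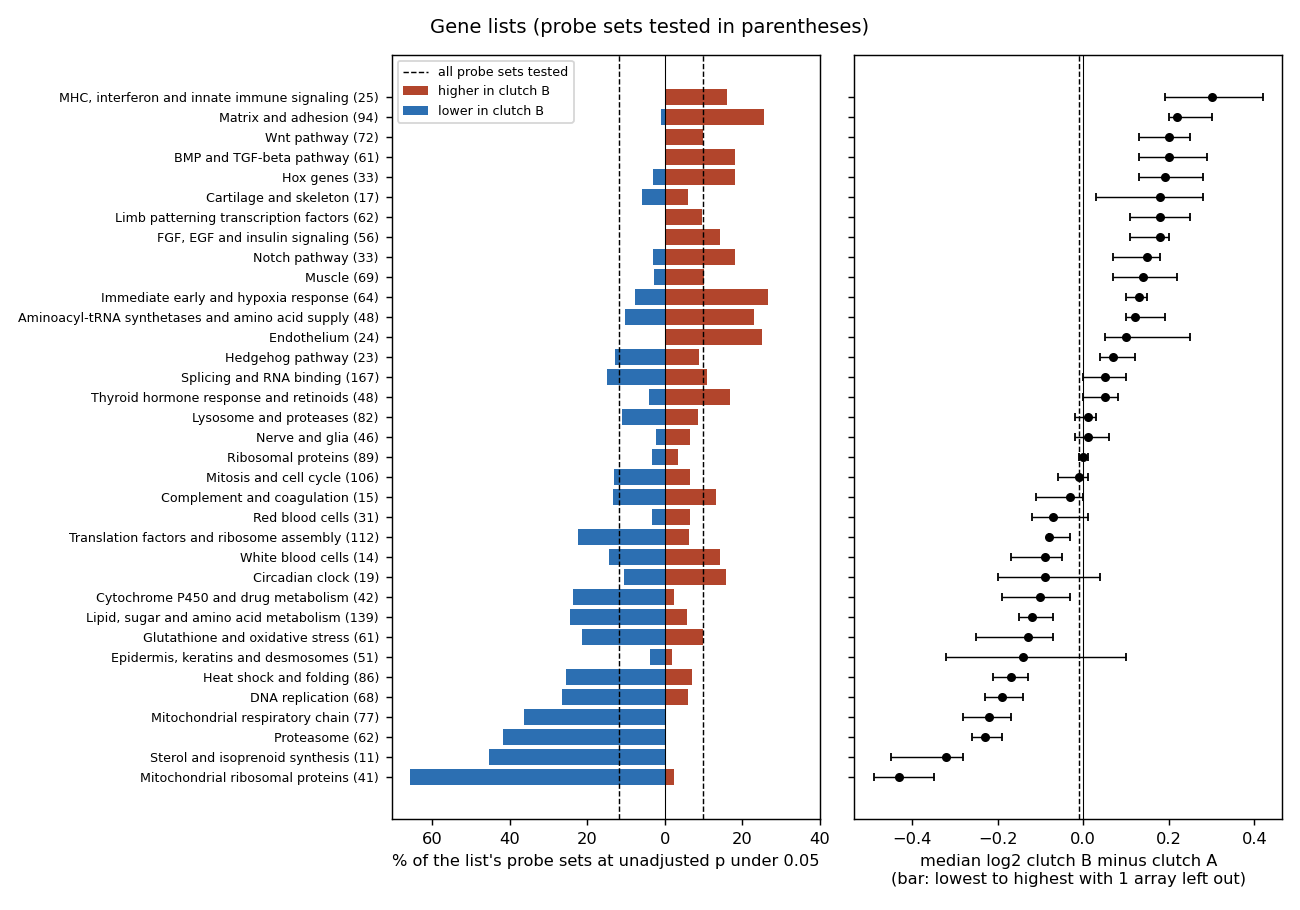
Gene lists with the number of probe sets tested in parentheses. Left, the percentage at an unadjusted p under 0.05 that was higher (red, right of 0) or lower (blue, left of 0) in clutch B, with dashed lines at the 9.81% and 11.9% of all probe sets tested. Right, the median difference of clutch B minus clutch A on the log2 scale, with a bar from the lowest to the highest median with 1 array left out. Mitochondrial ribosomal proteins (-0.43), sterol and isoprenoid synthesis (-0.32) and the proteasome (-0.23) lie at the lower end. MHC, interferon and innate immune signaling (0.30) lies at the upper end, with matrix and adhesion genes (0.22) near it. The lists of mitochondrial ribosomal proteins and of aminoacyl-tRNA synthetases and amino acid supply were written after the values were seen.

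Markers of the tissues in the limb bud were compared as well, since in whole limb buds a smaller share of a tissue and less RNA per cell cannot be told apart. The mean level of 69 muscle probe sets was 7.50 and 7.66 with cyclopamine and 7.56 and 6.98 with ethanol in clutch B, against 6.77 and 7.70 with cyclopamine and 6.68 and 7.26 with ethanol in clutch A (exact permutation test over 70 assignments, two-sided, p = 0.257). The clutches overlapped, and in clutch A both arrays of pair 1 were below both of pair 2. pax3.L, of the muscle precursors that migrate into the limb, had 1.47 and 1.32 on 2 probe sets and -0.59 and -0.10 on 2 more (adjusted p = 0.0586, 0.0833, 0.170 and 0.758). The 51 epidermal probe sets averaged 9.08 and 8.28 with cyclopamine and 8.98 and 9.29 with ethanol in clutch B, against 8.88 and 9.56 with cyclopamine and 8.55 and 9.12 with ethanol in clutch A (exact permutation p = 0.714). Cyclopamine array 4 of clutch B, at the end of the first component, had the lowest epidermal level, and also the highest of the 17 cartilage probe sets, 8.18 against 7.47 to 7.74 on the other arrays of clutch B and 7.53 to 7.66 in clutch A. The median epidermal difference was -0.59 in cyclopamine and 0.21 in ethanol arrays. The 24 endothelial probe sets had 6.75 to 6.94 in clutch B and 6.54 to 6.75 in clutch A (exact permutation p = 0.0286, the smallest that 4 against 4 arrays allow, and 0.200 adjusted over 7 tissues), with 6 higher and none lower at an unadjusted p under 0.05, among them gata2.L (0.54). The permutation tests took all 8 arrays as exchangeable, although arrays of a pair shared the day of exposure and the extraction. Their p-values ignore this pairing. Red blood cell, white blood cell and nerve markers differed by -0.03, -0.12 and 0.02 on average. The part of these tissue levels in the differences of single genes was not tested.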

How the data were processed

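Intensities on a linear scale, 1 column per array, were deposited by the authors, and the labels call them normalized. The sources do not state how they were summarised and scaled. The members and gene lists were chosen with earlier results of these data known. Symbols came from GEO's platform annotation: of 15491 probe sets, 9304 had 1 symbol, 195 several and 5992 none, and no gene was named from several. Values were quantile-normalized, raised to a floor of 43.7 (the 20th percentile) where lower, converted to log2 and tested with limma 3.58.1 in R 4.3.3, with Benjamini-Hochberg adjustment over 13947 probe sets and a threshold of 0.05. Treatment was the covariate, and 4 group means gave the comparisons within treatments. The study's methods state what a pair shares. Deviations of its arrays correlated at 0.41 in clutch A and -0.32 in clutch B. Pairs lie within clutches, so pair entered as a random block only in an alternative, and batch and clutch cannot be told apart. The number of arrays limits the precision. Genes were named from the 15 probe sets in each direction with the largest difference among those called without overlap. Others came from the 5 in each direction with the smallest p, genes with both homeologs called and those at the floor in 1 clutch. Up to 3 called members of each of 33 lists and the 3 in each direction with the smallest interaction p were also used. Not every gene under these rules is described. Members that did not pass, and pcolce.S, sdc4.L, irs4.L, syvn1.L, slc7a3.L, gars1.S, kars1.L, phf5a.L, prkag1.L, mtx2.L, mul1.L, coa7.L, the mitochondrial ribosomal genes, cav3.2.S, MGC83844 and cebpa.S, were chosen after their values were seen. The fit was tested on simulated data.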

Additional observations from a re-analysis of the deposited data

Results flagged for a closer look

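Of 125 probe sets named with values, each with 4 arrays per clutch, 13 of 250 groups held an array that stood apart from the other 3 by more than 0.8 of the whole range of the group, and chance marks about 1 group in 20. Among called probe sets, all 6 were in clutch A. mknk2.S read 5.50 on cyclopamine array 1, sh3glb1.S 5.94 on ethanol array 2 and lfng.S 5.73 on cyclopamine array 2, each with the other 3 arrays at the floor of 5.45. With 3 arrays tied at the floor any value above it is marked, however near, and the rate of 1 in 20 does not apply. slc7a3.L read 10.05 on cyclopamine array 2 against 10.33 to 10.35 on the others, nlrp3.L 7.43 on cyclopamine array 1 against 7.81 to 7.84, and aldh7a1.L 10.22 on ethanol array 2 against 10.26 to 10.27 on its probe set called lower in clutch B.

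Among probe sets that did not pass, 2 genes and 1 further probe set of a called gene stood apart in clutch B. farsa.S read 7.55 on cyclopamine array 4 against 8.55 to 8.58, nid2.L 10.39 on ethanol array 3 against 9.90 to 9.91, and the second probe set of purb.S 7.0 on ethanol array 4 against 6.56 to 6.61. In clutch A, pax3.L read 5.63 on cyclopamine array 2 against 6.38 to 6.53 on its dim probe set, and sptlc1.L 5.83 on ethanol array 1 against 7.36 to 7.58 on the probe set with a difference of 1.29. On ethanol array 2 of clutch A, gars1.S read 7.16 against 7.66 to 7.74 on its dimmest probe set, and the second probe set of ext1.S read 8.83 against 8.34 to 8.40.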

How the results depend on the processing

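The count of 181 called probe sets was 64 with the floor at the 10th percentile, 392 with it at the 40th, 360 among brighter probe sets only, 83 by the methods' t-test after adjustment (2461 at an unadjusted p under 0.05) and 1 with pairs averaged. It ranged from 16 to 66 with 1 array left out and was 1 with cyclopamine array 4 of clutch B and ethanol array 2 of clutch A left out together (ext1.S), a choice made after seeing the data. With the pair as a replicate block 196 passed, the 181 among them. The correlation within pairs in that fit was -0.012, so it was nearly the main fit. It therefore does not show that the calls hold once the pairing is counted. The block left 0 of the 4 calls in ethanol arrays, and 29 called probe sets on the lists against 27. It also brought 2 probe sets given here as not called past the threshold, the 0.71 of sdc4.L (adjusted p = 0.0476) and an uncalled 0.74 of gars1.S (adjusted p = 0.0486). Of the 114 called with a symbol, 27 passed with the lower floor, 65 with no filter on dim probe sets, 34 by the methods' t-test, 0 with pairs averaged, 7 to 27 with 1 array left out and 1 without both arrays. Fewer arrays or pairs leave a test with less power, and the main fit took arrays that shared day and extraction as separate replicates. The part of either in these falls was not tested, nor was the cause of the other changes.

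In ethanol arrays 1 passed with values as deposited, 1 with the lower floor, 0 on those 4 arrays alone and 0 with any array left out. In cyclopamine arrays 3 passed with values as deposited, 3 with the lower floor, 0 on those 4 arrays alone and 0 to 1 with an array left out. The 27 called probe sets on the lists became 1 to 6 with 1 array left out and 0 without both. At an unadjusted p under 0.05, the 28 lower of the respiratory chain became 43 with array medians subtracted, 17 to 35 with 1 array left out and 11 without both. The 26 of the proteasome became 17 with pairs averaged, 12 to 28 and 9. The 24 higher of matrix and adhesion became 15 to 32 and 15, and the 11 of BMP and TGF-beta 7 to 14 and 5. Calls split into 86 higher and 73 lower (54.1% higher) with values as deposited and 62 and 113 (35.4%) with array medians subtracted, against 78 and 103 (43.1%), while the median of all moved by under 0.1. The probe set of aldh7a1.L that was higher in clutch B reversed to -0.24 when the gene's probe sets were averaged, since the others were lower. Of 1002 repeats over 51 named called probe sets, 474 kept the call, 527 kept the direction only and 1 reversed. In many repeats, such as pairs averaged, no covariate or the t-test, the difference is unchanged by construction and could not reverse. Others left arrays out of clutches that mostly did not overlap, which leaves little room for a reversal. The low number of reversals is therefore no test of direction.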

Other observations

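Some of the largest differences, picked here for their size, did not pass, and their arrays were uneven within a clutch. acod1lb.L had 8.82 and 10.68 with cyclopamine and 5.45 and 9.44 with ethanol in clutch B, against 6.09 and 6.10 with cyclopamine and 5.58 and 5.75 with ethanol in clutch A, a difference of 2.72 with an adjusted p of 0.145. phyhdlb.L had 11.13 and 11.65 with cyclopamine and 6.85 and 9.96 with ethanol in clutch B, against 8.09 and 8.12 with cyclopamine and 7.21 and 7.57 with ethanol in clutch A (2.15, adjusted p = 0.153). The muscle myosin myh8.L had 9.87 and 9.97 with cyclopamine and 10.57 and 7.37 with ethanol in clutch B, against 5.45 and 9.47 with cyclopamine and 5.45 and 8.37 with ethanol in clutch A (2.26, adjusted p = 0.287). In clutch A both arrays of pair 1 were at the floor for myh8.L and both of pair 2 far above it.

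In the order of the RefSeq gene table of assembly Xenopus_laevis_v10.1, used for names and neighbours only, 4 pairs of called genes were next to each other among measured genes. prdx1.L and mmachc.L were both lower in clutch B (-0.79 and -1.39). tmem14a.S was lower (-0.69) beside ephb3.S (2.23), vbp1.L lower (-1.25) beside irs4.L (0.87), and zfp36.L higher (1.25) beside timm50.L (-1.30). Whether so many neighbours are more than the number of calls would give was not tested.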
